A study of Mus musculus with 9 samples.

Results

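The Gadd45 family and 7 genes that respond to the same kinds of stimuli were examined in the livers of male mouse offspring. The 10 genes were Gadd45a, Gadd45b, Gadd45g, the cell cycle inhibitor gene Cdkn1a and the 6 immediate early genes Fos, Jun, Egr1, Atf3, Myc and Ier2, out of 55335 genes in the deposited table. They were listed by symbol and matched to the Ensembl identifiers of the table through a gene annotation, and all 10 were found. The list was chosen by the FPKM levels and group differences of these same livers, among them the high Gadd45g level after IVF. Their group differences are therefore given as a description with standard errors, and no p-value is printed for any of them. How many of the 10 passed a threshold is given beside the share of all genes that did.

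The study asked how the way of conception relates to metabolism of the adult liver. NC-chow mice came from natural mating and pregnancy, IVF-chow mice from fresh embryos at the 2-cell stage made by in vitro fertilization and placed in pseudopregnant ICR females, and FET-chow mice from such embryos that were slowly frozen, thawed and then placed in ICR females. All were B6D2F2 males, offspring of B6D2F1/J parents, fed chow, fasted for 4 h and killed at 20 weeks, with 3 mice in each group. The gestating mother and the embryo transfer therefore differ between NC-chow and the other groups together with fertilization, and the labels do not say which mice shared a litter. In the labels the mice are numbered 1, 5 and 6 (NC-chow) and 2, 3 and 4 (IVF-chow and FET-chow), and values are listed in this order.

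Gadd45 proteins are small acidic proteins without enzyme activity that bind partner proteins. They are known for binding the kinase Map3k4, which activates the p38 and JNK stress kinases, and for binding Pcna and the Cdk1 and cyclin B1 complex, and their genes are switched on within a short time of DNA damage, cytokines and other stress. Immediate early genes are transcribed within minutes of a stimulus without new protein synthesis, most encode transcription factors, and in liver they are known for their rapid rise after partial hepatectomy, growth factors, hormones or stress.

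The levels are FPKM, fragments divided by gene length and library size, so they can be compared between genes per length. No counts were used. More low FPKM values fell on steps of whole fragments than by chance. From these steps the depth was estimated to lie between 2020000 and 13350000 fragments per mouse. Each FET-chow library (2020000 to 2940000) was smaller than the others. Nuclear protein-coding genes took between 4.36% (IVF-chow mouse 2) and 29.3% (IVF-chow mouse 4) of the summed FPKM, and ribosomal RNA entries between 3.49% and 61.9% (IVF-chow mouse 2). Levels were therefore also expressed per 1000000 FPKM of nuclear protein-coding genes, called rescaled levels below. Of 19 housekeeping genes, FET-chow mouse 2 had 5 at 0 and FET-chow mouse 4 had 1, so a 0 in these libraries says only that the gene was listed at 0. All 13 hepatocyte markers were present in every group. In whole liver, a change in the number of cells of a type and a change of RNA per cell cannot be told apart.

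The core promoters show how the 3 Gadd45 genes and Fos are built around their start sites. Promoter sequences of 300 bases, from 250 before to 50 after the RefSeq start, were taken from RefSeq (GRCm38.p6), which matched 7 of the 10 genes and gave 8 promoters, since Cdkn1a has 2. The promoters of Egr1, Myc and Ier2 were not analysed here. The sequences follow for Gadd45a (chr6:67037358-67037657, minus strand), Gadd45b (chr10:80929841-80930140, plus strand), Gadd45g (chr13:51846425-51846724, plus strand) and Fos (chr12:85473640-85473939, plus strand), 5′ to 3′ on the strand of the gene. They are shown because the Gadd45 genes differed most in level from each other and Fos stood with Gadd45g. Capitals mark the TATA box TATAAA, the CCAAT box CCAAT, the E-box CACGTG and the short CRE TGACG, searched on both strands. None of these 4 motifs contains another.
Gadd45a: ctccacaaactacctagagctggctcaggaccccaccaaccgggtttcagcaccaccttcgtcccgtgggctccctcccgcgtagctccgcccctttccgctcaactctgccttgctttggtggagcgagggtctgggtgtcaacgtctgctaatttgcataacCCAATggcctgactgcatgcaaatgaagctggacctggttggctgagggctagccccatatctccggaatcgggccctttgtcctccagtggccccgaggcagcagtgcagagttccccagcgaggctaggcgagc
Gadd45b: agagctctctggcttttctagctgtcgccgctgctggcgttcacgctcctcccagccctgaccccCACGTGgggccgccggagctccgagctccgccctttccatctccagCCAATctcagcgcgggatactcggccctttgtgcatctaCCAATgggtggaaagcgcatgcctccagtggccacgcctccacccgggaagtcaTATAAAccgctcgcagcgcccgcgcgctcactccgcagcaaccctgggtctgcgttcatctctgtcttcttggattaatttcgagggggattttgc
Gadd45g: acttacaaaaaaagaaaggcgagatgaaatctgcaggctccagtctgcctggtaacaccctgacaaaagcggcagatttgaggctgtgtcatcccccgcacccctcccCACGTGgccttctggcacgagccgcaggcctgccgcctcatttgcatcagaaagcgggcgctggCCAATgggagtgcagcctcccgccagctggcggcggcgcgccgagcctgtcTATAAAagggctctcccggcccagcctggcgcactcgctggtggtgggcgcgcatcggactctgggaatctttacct
Fos: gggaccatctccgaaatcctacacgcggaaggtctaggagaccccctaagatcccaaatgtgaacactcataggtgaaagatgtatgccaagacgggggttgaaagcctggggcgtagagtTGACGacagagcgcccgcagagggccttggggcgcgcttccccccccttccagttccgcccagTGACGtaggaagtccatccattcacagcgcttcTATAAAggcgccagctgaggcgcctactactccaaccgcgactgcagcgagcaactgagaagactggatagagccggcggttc

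Gadd45b and Gadd45g, on different chromosomes, share the same set of letters in the same order, an E-box, then a CCAAT box, then a TATA box. In Gadd45g the first bases of these lie at -142, -78 and -27 from the start, and in Gadd45b the E-box lies at -185, the 2 CCAAT boxes at -139 and -100, and the TATA box at -46. Gadd45a has a CCAAT box at -86 and neither an E-box nor a TATA box of these letters in the window. In Fos the TATA box lies at -33 and short CREs lie at -129 and -66.

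Across the 8 promoters, TATAAA was found in 3 (Gadd45b, Gadd45g, Fos), against 13.6% of all 32851 promoters of the same length. CACGTG was found in 2, against 7.15%, CCAAT in 5, against 37.4%, and TGACG in 2 (Fos and Atf3), against 20.8%. The GC box GGGCGG was found in 6, against 35.7%. The full CRE TGACGTCA, which contains the short one, and the AP-1 site TGACTCA were found in none of the 8, against 1.79% and 5.2%. The CArG box, the GAS core TTCNNNGAA and the Egr site GCGTGGGCG were also found in none, against 1.63%, 8.3% and 0.612%. These counts describe letters in a window and say nothing of binding. Sites outside the window, and the promoters of Egr1, Myc and Ier2, were not searched.

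Gadd45g (ENSMUSG00000021453, chr13:51846678-51848468, plus strand, GRCm38) was the member with the highest mean level. Its FPKM was 0.692, 6.49 and 6.5 in NC-chow mice 1, 5 and 6, and 24.3, 194 and 165 in IVF-chow mice 2, 3 and 4. In FET-chow mice 2, 3 and 4 it was 0, 5.09 and 1.74. Every IVF-chow mouse lay above every other mouse, and the lowest IVF-chow level was 3.74 times the highest NC-chow level and 4.78 times the highest FET-chow level. The NC-chow and FET-chow ranges overlapped. By estimate these levels rest on 240, 1024 and 750 fragments in the IVF-chow mice, on 5, 91 and 102 in the NC-chow mice and on 0, 17 and 6 in the FET-chow mice. In the FET-chow libraries 3 fragments of Gadd45g give 0.871 to 1.27 FPKM, so the level of NC-chow mouse 1 lay below this limit.

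IVF-chow mice had a mean Gadd45g FPKM of 128 ± 90.8 (SD, n = 3). NC-chow mice had 4.56 ± 3.35 (SD, n = 3), and the ratio of the means was 28.0. On the log2(FPKM + 1) scale, which understates changes of low genes, IVF-chow was above NC-chow by 4.36 (SE 0.91). FET-chow was below IVF-chow, a difference of -5.19 (SE 0.91), and FET-chow minus NC-chow was -0.84 (SE 0.91). The last became -0.16 without FET-chow mouse 2, -1.55 without NC-chow mouse 1 and -0.37 in the rescaled fit described below. On log2 of 1 plus the rescaled level FET-chow minus NC-chow was -1.14, so its size depended on the scale. The FET-chow and IVF-chow comparisons with NC-chow share the NC-chow mice, and both comparisons of IVF-chow share the IVF-chow mice.

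Rescaling kept this order. The rescaled Gadd45g level was 7.38, 47.0 and 41.5 in NC-chow mice 1, 5 and 6 and 621, 1780 and 714 in IVF-chow mice 2, 3 and 4. It was 0, 39.3 and 38.4 in the FET-chow mice. IVF-chow mouse 2, whose FPKM of 24.3 was far below the other IVF-chow mice, lay close to IVF-chow mouse 4 after rescaling.

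**Figure D1:**
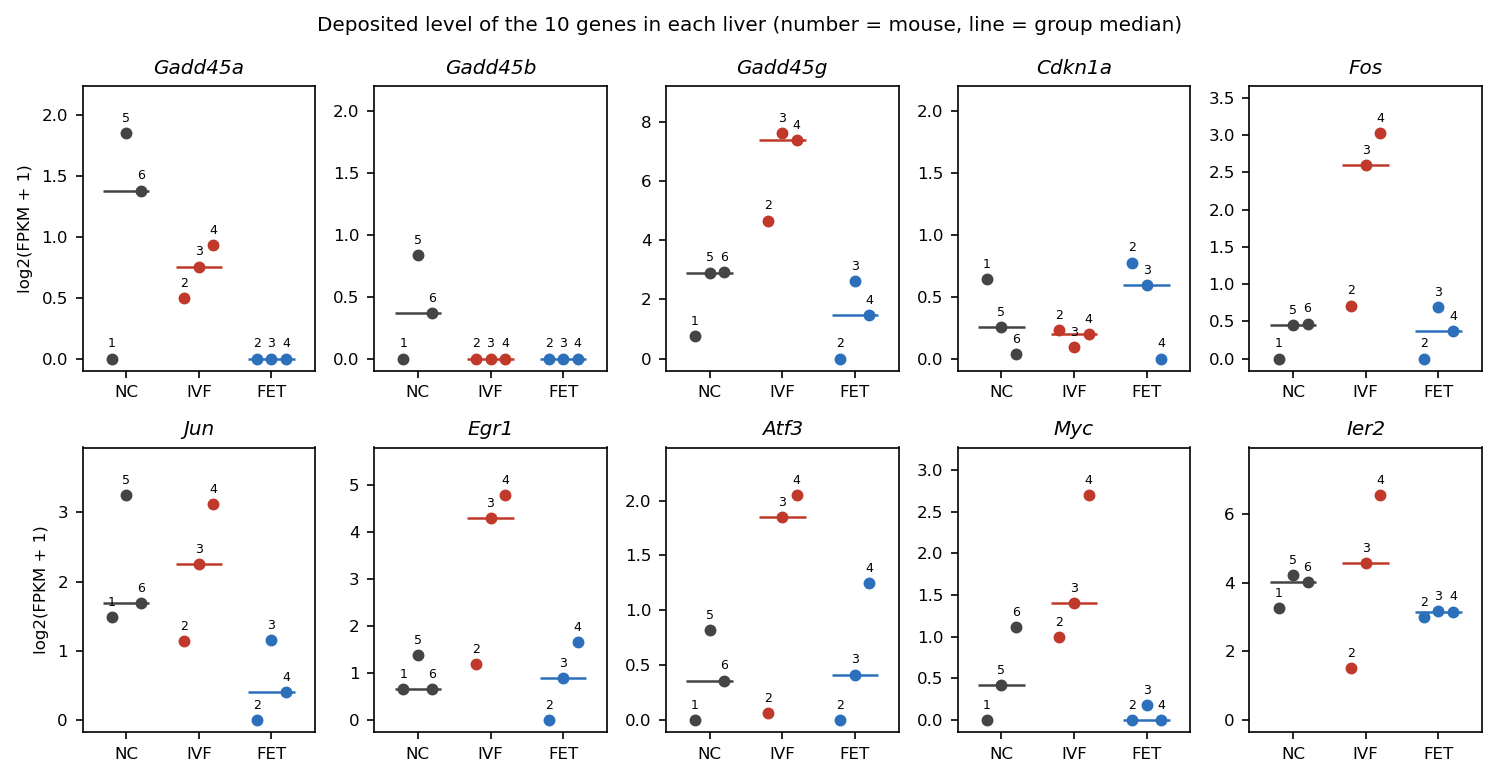
Level of each of the 10 genes in each mouse, as log2(FPKM + 1) on the vertical axis, which differs between genes, by group (NC, IVF or FET, all on chow) on the horizontal axis. Each point is 1 mouse with its number and each line is the group median. Gadd45g and Fos of the 3 IVF-chow mice lie above all other mice, while Egr1, Atf3 and Ier2 are highest in IVF-chow mice 3 and 4.

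In the labels the libraries of NC-chow mice 5 and 6 carry numbers apart from those of the other libraries (67 to 76), and for those mice this split cannot be told apart from group. With NC-chow mouse 1 as the only NC-chow mouse, Gadd45g in IVF-chow was above it by 5.79 on the log2 scale, and FET-chow minus NC-chow became 0.59, the opposite sign. The IVF-chow and FET-chow libraries have consecutive numbers, 71 to 76.

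The relatives of Gadd45g were low in all groups. Gadd45a (ENSMUSG00000036390, chr6:67035096-67037457, minus strand), a p53 target gene, was at 0, 2.6 and 1.6 FPKM in the NC-chow mice, at 0.411, 0.687 and 0.904 in the IVF-chow mice, and at 0 in the 3 FET-chow mice. The NC-chow and IVF-chow ranges overlapped. In the FET-chow libraries 3 fragments would give between 0.579 and 0.843 FPKM, so the levels of the IVF-chow mice lay around this limit. Gadd45b (ENSMUSG00000015312, chr10:80930073-80932204, plus strand), a target of NF-kB and TGF-beta signalling, was at 0, 0.787 and 0.287 in the NC-chow mice and at 0 in the other 6 mice. For Gadd45b, 3 fragments give 0.224 to 0.486 FPKM in the IVF-chow libraries and 0.643 to 0.936 in the FET-chow libraries, so the level of NC-chow mouse 6 lay within the range of the former limits and that of NC-chow mouse 5 within the range of the latter.

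Gadd45g thus made up between 98.3% and 99.6% of the summed FPKM of the family in the IVF-chow mice, whose sums were 24.7, 195 and 165. In NC-chow mice 5 and 6 the share was 65.7% and 77.5% of sums of 9.88 and 8.38, and Gadd45a supplied most of the rest. In NC-chow mouse 1 and FET-chow mice 3 and 4 Gadd45g was the only member above 0. The Gadd45a locus overlaps E230016M11Rik on the opposite strand, and as strandedness is not given in the sources used here, reads of these 2 genes cannot be told apart.

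Cdkn1a (ENSMUSG00000023067, chr17:29090976-29100727, plus strand) encodes p21, an inhibitor of cyclin-dependent kinases that binds Pcna and is the best known p53 target. Its FPKM was 0.561, 0.191 and 0.0254 in the NC-chow mice, 0.17, 0.0637 and 0.147 in the IVF-chow mice, and 0.71, 0.509 and 0 in the FET-chow mice. The 3 groups overlapped, and the highest level was in a FET-chow mouse. IVF-chow minus NC-chow was -0.14 on the log2(FPKM + 1) scale, and it became 0.03 without NC-chow mouse 1, so its direction rests on that mouse. In the libraries of these groups 3 fragments give 0.0632 to 0.217 FPKM, and NC-chow mouse 6 and IVF-chow mice 3 and 4 lay below the level that 3 fragments give in their own library. Cdkn1a overlaps AC167363.2 on the other strand.

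Fos and Jun encode the partners of the AP-1 transcription factor. Fos (ENSMUSG00000021250, chr12:85473890-85477273, plus strand) was at 0, 0.361 and 0.385 FPKM in the NC-chow mice, at 0.637, 5.06 and 7.13 in the IVF-chow mice, and at 0, 0.616 and 0.295 in the FET-chow mice. The groups with and without fresh transfer did not overlap, but IVF-chow mouse 2 exceeded FET-chow mouse 3 by very little. IVF-chow was above NC-chow by 1.81 (SE 0.60) and FET-chow minus IVF-chow was -1.76 (SE 0.60). Leaving out 1 mouse gave 1.35 (without IVF-chow mouse 4) to 2.51 (without IVF-chow mouse 2) for the former and -1.30 to -2.46, without the same mice, for the latter. After rescaling the gap widened, with 16.3, 46.3 and 31.0 in the IVF-chow mice against at most 2.61 in NC-chow and 6.5 in FET-chow.

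Jun (ENSMUSG00000052684, chr4:95049034-95052222, minus strand) did not follow Fos in the comparisons with NC-chow. Its FPKM was 1.81, 8.54 and 2.23 in the NC-chow mice, 1.2, 3.75 and 7.72 in the IVF-chow mice, and 0, 1.23 and 0.321 in the FET-chow mice. NC-chow and IVF-chow overlapped widely, while every FET-chow mouse lay below every NC-chow mouse. FET-chow minus NC-chow was -1.62 (SE 0.64), FET-chow minus IVF-chow was -1.65 (SE 0.64), and IVF-chow minus NC-chow was 0.03 (SE 0.64). Leaving out 1 mouse gave -1.07 (without NC-chow mouse 5) to -1.95 (without NC-chow mouse 1) for the first, -1.17 (without IVF-chow mouse 4) to -2.17 (without IVF-chow mouse 2) for the second and values of either sign, -0.45 to 0.58, for the last. In the FET-chow libraries 3 fragments of Jun give 0.32 to 0.466 FPKM. The antisense gene Junos overlaps Jun, and reads of the pair cannot be told apart without strand.

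The ratio of Fos to Jun within a mouse does not change with scaling between mice. It was 0, 0.0423 and 0.173 in the NC-chow mice and 0.531, 1.35 and 0.924 in the IVF-chow mice. In FET-chow mice 3 and 4 it was 0.501 and 0.919, and in FET-chow mouse 2 both genes were listed at 0. The ratio was thus higher in each IVF-chow mouse than in each NC-chow mouse, whereas the IVF-chow and FET-chow ratios overlapped. The FET-chow ratios rest on an estimated 4 and 2 fragments of Fos over 11 and 3 of Jun, so they are imprecise, and little can be read from this overlap.

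Egr1 (ENSMUSG00000038418) encodes a zinc finger transcription factor induced by growth factors through the serum response factor. Its FPKM was 0.581, 1.59 and 0.585 in the NC-chow mice, 1.27, 18.6 and 26.6 in the IVF-chow mice, and 0, 0.866 and 2.14 in the FET-chow mice. IVF-chow mice 3 and 4 stood far above the other 7 mice, and IVF-chow mouse 2 lay within the range of both other groups. IVF-chow mice had a mean FPKM of 15.5 ± 12.9 (SD, n = 3) and NC-chow mice one of 0.919 ± 0.582 (SD, n = 3). The log2 difference was 2.52 (SE 0.71) between IVF-chow and NC-chow and -2.57 (SE 0.71) between FET-chow and IVF-chow. These became 1.84 and -1.89 without IVF-chow mouse 4, and 3.64 and -3.69 without IVF-chow mouse 2. Rescaled levels ran from 32.5 to 170 in the IVF-chow mice, all above those of the NC-chow mice, at most 11.5, but FET-chow mouse 4 reached 47.2.

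Atf3 (ENSMUSG00000026628, chr1:191170296-191218039, minus strand) encodes a stress-induced factor of the ATF/CREB family. Its FPKM was 0, 0.769 and 0.283 in the NC-chow mice, 0.0463, 2.61 and 3.15 in the IVF-chow mice, and 0, 0.333 and 1.38 in the FET-chow mice. IVF-chow mice 3 and 4 were again the highest, while IVF-chow mouse 2 was near 0. After rescaling FET-chow mouse 4 was the highest at 30.3, above IVF-chow mice 3 and 4 at 23.9 and 13.7. The log2 difference was 0.93 between IVF-chow and NC-chow and -0.77 between FET-chow and IVF-chow. These became 0.56 and -0.40 without IVF-chow mouse 4, and 1.56 and -1.40 without IVF-chow mouse 2. Atf3 overlaps the small RNA gene Gm24748 on the opposite strand.

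Myc (ENSMUSG00000022346, chr15:61985391-61990374, plus strand), the growth-promoting transcription factor, was at 0, 0.341 and 1.16 FPKM in the NC-chow mice and at 0.987, 1.64 and 5.51 in the IVF-chow mice. In FET-chow mice 2, 3 and 4 it was 0, 0.133 and 0. Every FET-chow mouse lay below every IVF-chow mouse, though 3 fragments of Myc give between 0.376 and 0.547 FPKM in the FET-chow libraries. The log2 difference was 1.19 (SE 0.59) between IVF-chow and NC-chow and -1.64 (SE 0.59) between FET-chow and IVF-chow. These became 0.68 and -1.14 without IVF-chow mouse 4, and 1.54 and -1.99 without IVF-chow mouse 2. After rescaling, the IVF-chow mice were at 25.2, 15.0 and 23.9, above all NC-chow mice, which reached 7.41.

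Ier2 (ENSMUSG00000053560, chr8:84661331-84662852, minus strand), a nuclear protein gene induced by growth factors, was the only member above 0 in all 9 mice. Its FPKM was 8.52, 17.7 and 15.2 in the NC-chow mice, 1.85, 22.6 and 93.3 in the IVF-chow mice, and 7, 8.06 and 7.92 in the FET-chow mice. The IVF-chow group held both the lowest and the highest mouse, and the FET-chow mice were close together and just below the NC-chow mice. The log2 difference was 0.38 (SE 0.96) between IVF-chow and NC-chow, -0.72 (SE 0.96) between FET-chow and NC-chow and -1.10 (SE 0.96) between FET-chow and IVF-chow. Without IVF-chow mouse 4 the first became -0.79 and the last 0.08, both of the opposite sign, and without IVF-chow mouse 2 they became 1.73 and -2.45. On the rescaled level, FET-chow mice (76.7, 62.3 and 174) and NC-chow mice (90.8, 128 and 96.9) overlapped.

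**Figure D2:**
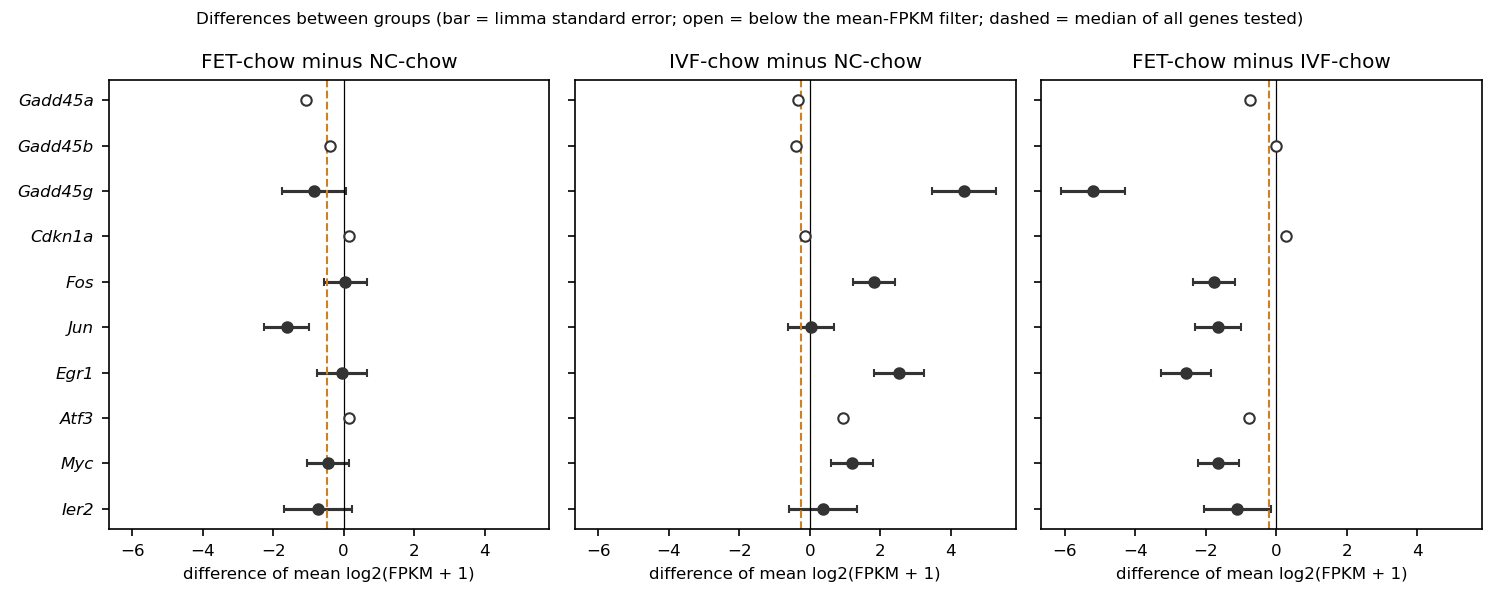
Difference of group means on the log2(FPKM + 1) scale (horizontal axis) for each of the 10 genes (vertical axis) in the 3 comparisons. Bars are standard errors from limma, open points are genes with a mean FPKM below 1, the solid line is 0 and the dashed line is the median of all 6755 genes tested. Gadd45g lies farthest from 0 in both comparisons with IVF-chow, and Jun lies lowest in FET-chow minus NC-chow.

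The order of the genes by FPKM within a library differed between the groups. In each of the 3 IVF-chow mice Gadd45g was the highest of the 10 genes, followed by Ier2 and Egr1. In each NC-chow and each FET-chow mouse Ier2 was the highest. The ratio of Gadd45g to Ier2 was 13.1, 8.58 and 1.77 in the IVF-chow mice. It was 0.0812, 0.367 and 0.428 in the NC-chow mice and 0, 0.632 and 0.22 in the FET-chow mice, so the IVF-chow ratios did not overlap those of either group. The ratio of Egr1 to Ier2 was 0.686, 0.823 and 0.285 in the IVF-chow mice, at most 0.0898 in the NC-chow mice and at most 0.27 in the FET-chow mice.

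Across all genes, limma on log2(FPKM + 1) with Benjamini-Hochberg adjustment over the 6755 genes that averaged at least 1 FPKM called 0.0592% of genes between IVF-chow and NC-chow, 0.0888% between FET-chow and IVF-chow and 0.237% between FET-chow and NC-chow. Of the 10 genes, 6 passed the filter on low values. Gadd45g was the 1 member called in the first and in the second comparison, and no member was called in the third (1 member, Jun, was lower there at an unadjusted p under 0.05, as were 10.1% of all genes tested). The Gadd45g call was kept under 3 of 14 alternatives between IVF-chow and NC-chow, not after rescaling or without any 1 of the IVF-chow mice, and under 10 of 14 between FET-chow and IVF-chow. Without IVF-chow mouse 2, Egr1 was called in the latter comparison as well. Nothing is read from these counts, since the list was chosen with them in view. Fos, Egr1 and Myc passed the filter only through their IVF-chow levels. Just inside the filter stood Myc at a mean FPKM of 1.09, and just outside it Atf3 at 0.951. The others below it were Gadd45a at 0.69, Cdkn1a at 0.264 and Gadd45b at 0.119.

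Among the 6 tested members, 2 (Gadd45g and Fos) had every IVF-chow mouse above every NC-chow mouse, as did 0.77% of all genes tested. After rescaling these were 4 members (Egr1 and Myc in addition), and 4.87% of all genes. Every FET-chow mouse lay below every IVF-chow mouse for 3 members (Gadd45g, Fos and Myc) and for 2.56% of all genes, and after rescaling for 4 members (Jun in addition) and 6.01% of all genes. The 3 IVF-chow mice lay above all 6 other mice for Gadd45g and Fos and for 0.118% of all genes, and after rescaling for Myc as well and for 0.651%. Every FET-chow mouse lay below every NC-chow mouse for 2 members (Jun and Ier2) and 17.1% of all genes, and after rescaling for 1 (Jun) and 11.5%. IVF-chow mice 3 and 4 both lay above the other 7 mice for 5 members and 7.68% of all genes, and after rescaling for 4 members and 2.44% of all genes. The exception was Jun, and after rescaling Jun and Myc. Nothing is read from these counts of members either. The list was chosen by these levels, and Fos, Egr1 and Myc passed the filter only through IVF-chow.

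Over all 10 genes the median log2 difference was 0.65 between IVF-chow and NC-chow, with 7 genes positive and 3 negative, against a median of -0.25 over all genes tested. The former became 0.21, 0.43 or 0.41 without IVF-chow mouse 4, IVF-chow mouse 3 or NC-chow mouse 1, and 1.55 without IVF-chow mouse 2. Between FET-chow and IVF-chow the median was -1.37, against -0.20 over all genes, and it became -0.88 without IVF-chow mouse 4 and -2.08 without IVF-chow mouse 2. Between FET-chow and NC-chow it was -0.43, against -0.46, and it became -0.65 without NC-chow mouse 1 and -0.28 without FET-chow mouse 2. Rescaling to nuclear protein-coding genes moved the median of all genes to -0.07, 0.02 and -0.06 in these 3 comparisons, and that of the 10 genes to 0.68, -1.13 and -0.21. In that fit each mouse was divided by its nuclear protein-coding sum relative to the geometric mean of the 9 sums, which keeps levels in the range of FPKM before 1 is added, and the Gadd45g difference was 4.66 between IVF-chow and NC-chow and -5.03 between FET-chow and IVF-chow. On log2 of 1 plus the rescaled level per 1000000, where the added 1 weighs less, it was 5.17 and -6.31. For FET-chow minus NC-chow the Gadd45g difference was -0.37 in that fit and -1.14 on this last scale.

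**Figure D3:**
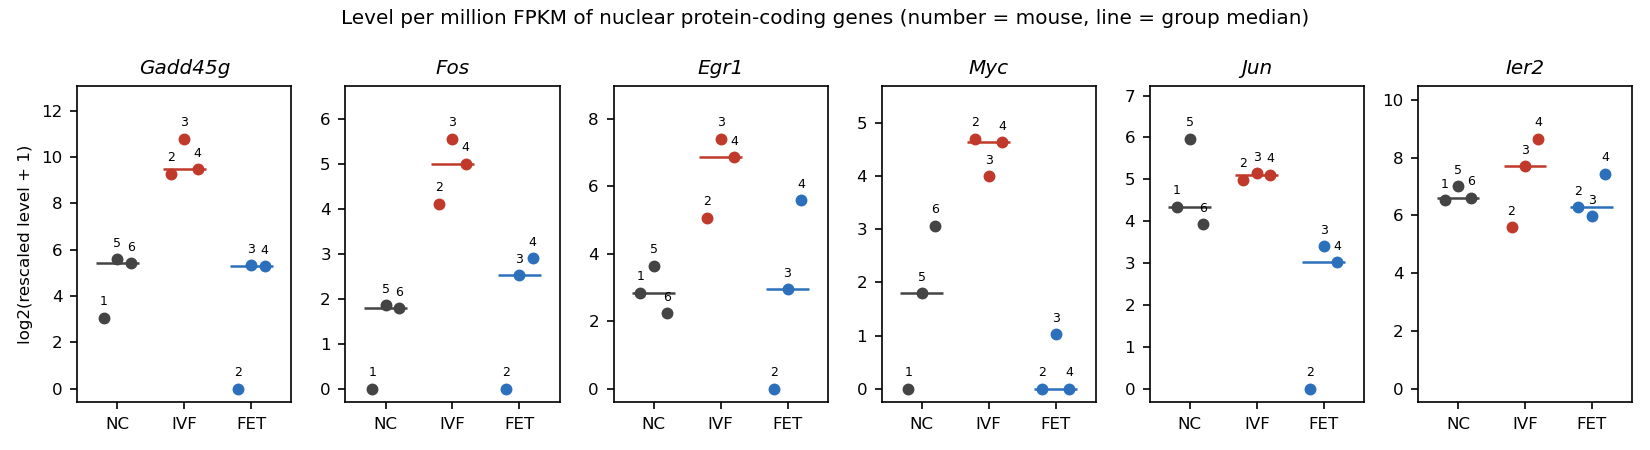
Rescaled level of the 6 tested genes in each mouse, as log2 of 1 plus the level per 1000000 FPKM of nuclear protein-coding genes (vertical axis, which differs between genes), by group (horizontal axis). Each point is 1 mouse with its number and each line is the group median. Gadd45g, Fos and Myc of all 3 IVF-chow mice lie above every other mouse, and the Jun levels of the FET-chow mice lie below all others.

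The other genes of these pathways were described from 8 lists. Among 46 other immediate early genes, 44 were found and 25 tested, and none was called by limma in any comparison. None of the 25 had an unadjusted p under 0.05 between IVF-chow and NC-chow, where 10 were positive and 15 negative and the median was -0.13, against -0.25 over all genes. In FET-chow minus NC-chow 4 were positive and 21 negative, with a median of -0.61 against -0.46, and 6 of the 25 had an unadjusted p under 0.05, all lower, as were 10.1% of all genes tested. The summed FPKM of this list was 98.3 to 221 in NC-chow, 33.8 to 278 in IVF-chow and 66.7 to 123 in FET-chow, and the ranges overlapped.

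The other immediate early genes named by their difference in FET-chow minus NC-chow were Tob1, Dusp1 and Irf1. Dusp1, the phosphatase that switches off p38 and JNK, was at 1.17, 27.3 and 12 FPKM in the NC-chow mice, at 0.799, 9.64 and 9.87 in the IVF-chow mice and at 1.11, 2.9 and 2.21 in the FET-chow mice. Its groups overlapped, and its IVF-chow levels did not exceed those of NC-chow mice 5 and 6. Tob1, an antiproliferative gene, differed by -1.95 (SE 0.87) and the interferon regulatory factor gene Irf1 by -1.63 (SE 0.60) in FET-chow minus NC-chow, with adjusted p values of 0.358 and 0.258 by limma. The AP-1 gene Junb was at 3.88, 7.78 and 6.15 in the NC-chow mice, 0.512, 3.57 and 7.22 in the IVF-chow mice and 1.94, 1.03 and 1.51 in the FET-chow mice. As with Jun, every FET-chow mouse was below every NC-chow mouse, and the adjusted p by limma was 0.382.

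No gene passed the test in the list of p53 targets (11 of 25 tested), in the list of Gadd45 partners and the p38 and JNK cascade (10 of 20) or in the list of the ERK cascade and serum response (11 of 20). The medians between IVF-chow and NC-chow were -0.44, -0.30 and -0.25. At an unadjusted p under 0.05, 0 and 1 of the genes of the first 2 lists were lower in IVF-chow than in NC-chow and 2 and 0 were lower in FET-chow than in NC-chow, and none was higher. Of all genes tested, 2.86% were lower in the former comparison and 10.1% in the latter. The largest p53 target in FET-chow minus NC-chow was Plk3, a stress-responsive kinase gene, at 10.3, 37.2 and 39.2 FPKM in the NC-chow mice, 8.7, 38.2 and 142 in the IVF-chow mice and 6.56, 5.78 and 2.18 in the FET-chow mice. Every FET-chow mouse was below all others for Plk3 (difference from NC-chow -2.25, SE 0.97, adjusted p by limma 0.349). Perp and Trp53inp1, also p53 targets, differed by -2.18 (SE 0.80) and -1.08 (SE 0.62).

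Among the Gadd45 partners, Pcna, the sliding clamp of DNA replication, was at 0.607, 2.15 and 2.45 FPKM in the NC-chow mice, 0.664, 1.71 and 2.61 in the IVF-chow mice and 0, 1.05 and 0 in the FET-chow mice. Its IVF-chow and NC-chow levels overlapped almost completely. Cyclin B1 (Ccnb1) was at 0 in all 9 mice. Map2k3, a kinase that activates p38, was the only member of this list with an unadjusted p under 0.05 between IVF-chow and NC-chow, at 10.7, 6.11 and 5.56 FPKM in the NC-chow mice and 0.36, 0.541 and 0.903 in the IVF-chow mice (difference -2.37, SE 0.72, adjusted p by limma 0.417). Its FET-chow levels were 25.9, 1.94 and 3.61, each above every IVF-chow mouse and 1 of them above every NC-chow mouse. Map3k5 and Gadd45gip1, the latter encoding a protein that binds Gadd45 proteins, differed by -1.01 (SE 0.58) and 0.80 (SE 1.0) in FET-chow minus NC-chow. In the ERK list Elk4 and Araf differed by -0.87 (SE 0.62) and -0.77 (SE 0.66).

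No gene passed in the lists of AP-1, ATF and CREB factors (11 of 24 tested), the integrated stress response (9 of 22), Myc partners and targets (14 of 25) and cell cycle inhibitors and cyclins (6 of 24). In FET-chow minus NC-chow their medians were -1.17, -0.90, -0.59 and -0.13, against -0.46 over all genes. Between IVF-chow and NC-chow they were -0.77, -0.20, -0.28 and -0.12, against -0.25. At an unadjusted p under 0.05, 4, 2, 0 and 0 of their genes were lower in FET-chow than in NC-chow, none was higher, and none passed this threshold between IVF-chow and NC-chow. Of all genes tested, 10.1% were lower and 1.88% higher in FET-chow than in NC-chow at this threshold. Atf4, the central factor of the integrated stress response, was at 13.9, 26.1 and 26.7 FPKM in the NC-chow mice, 4.8, 20 and 60.1 in the IVF-chow mice and 5.54, 1.53 and 8.57 in the FET-chow mice. Every FET-chow mouse was below every NC-chow mouse for Atf4, and the IVF-chow mice spanned both groups. Creb3, Cebpg and Atf5 differed by -1.46 (SE 0.60), -1.47 (SE 0.60) and -1.15 (SE 0.94) in FET-chow minus NC-chow.

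Among genes linked to Myc, the mitochondrial chaperonin gene Hspd1, the spermidine synthase gene Srm and the translation factor gene Eif4a1 differed by -1.59 (SE 0.92), -1.30 (SE 0.72) and -1.25 (SE 0.77) in FET-chow minus NC-chow. The kinases Cdk4 and Cdk6 differed by -0.93 (SE 0.60) and 0.30 (SE 0.59).

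Markers of other cell types were given beside these results. The summed FPKM of 12 Kupffer cell and macrophage markers was 34.1 to 53.2 in NC-chow, 10.3 to 83.0 in IVF-chow and 19.9 to 128 in FET-chow. That of 9 neutrophil and monocyte markers was 1.42 to 3.51, 0.451 to 12.7 and 0.415 to 2.09, with Ly6g at 0 in all mice, and that of 10 lymphocyte markers was at most 2.37. Endothelial markers summed to 13.2 to 20.7, 5.04 to 18.0 and 9.52 to 17.8, and stellate cell markers to 15.4 to 16.1, 7.14 to 39.1 and 6.03 to 24.0. Cholangiocyte markers summed to 8.01 to 17.2, 1.62 to 10.3 and 1.66 to 9.71, and erythroid markers to 335 to 850, 78.0 to 389 and 177 to 591. Hepatocyte markers summed to 20600 to 35600, 5830 to 56600 and 7990 to 28000. The IVF-chow range overlapped the other ranges for each of these lists. For the stellate cell markers this overlap in FPKM came from IVF-chow mouse 2 alone, since IVF-chow mice 3 and 4, at 33.9 and 39.1, lay above the other 7 mice. These sums were not rescaled. The share of nuclear protein-coding genes was 11.8% and 29.3% in those mice and 4.41% in FET-chow mouse 4. The order of these sums is therefore not compared with that of the members. The 5 tested stellate cell markers were positive in IVF-chow minus NC-chow (median 0.18) and none was called. The 5 tested erythroid markers were negative in that comparison, with a median of -1.59 against -0.25 over all genes. In FET-chow minus NC-chow the 13 hepatocyte markers had a median of -1.23, against -0.46, with 2 positive and 11 negative. No erythroid or hepatocyte marker was called in these comparisons. The part of these cell types in the levels of the 10 genes was not tested.

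Among all tested genes outside the list, those with the pattern most like the 3 members of highest mean FPKM were found by Pearson's r of log2(FPKM + 1) over the 9 mice. The points share libraries, depth and composition, and IVF-chow mice 3 and 4 stand apart from the rest, so r is a description only. For Gadd45g these were Sssca1 (r = 0.96, and 0.82 without IVF-chow mice 3 and 4), Tchh (0.92 and 0.67) and the microRNA gene Gm22758 (0.92 and 0.80). On rescaled levels of the 9 mice r was 0.87, 0.82 and 0.92 for these genes. Sssca1 was at 0, 1.63 and 0.848 FPKM in the NC-chow mice, 1.94, 12.1 and 9.85 in the IVF-chow mice and 0 in all FET-chow mice.

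For Ier2 the most similar were Nudt3 (0.98, and 0.95 without those mice), Ubl4a (0.97 and 0.93) and the pseudogene Rpl17-ps10 (0.97 and 0.92). On rescaled levels r was 0.65, 0.91 and 0.92, so the likeness of Nudt3 to Ier2 was lower there. For Egr1 they were the long non-coding RNA gene A930014E10Rik (0.96), at 0 outside IVF-chow mice 3 and 4, the heat shock gene Dnajb1 (0.95) and Socs2 (0.95), an inhibitor of growth hormone signalling. On rescaled levels r was 0.73, 0.84 and 0.78 for these genes. For Dnajb1 and Socs2 r of the FPKM levels was 0.27 and -0.08 over the other 7 mice, so their likeness to Egr1 rests on IVF-chow mice 3 and 4, while that of the genes like Ier2 was kept on this scale without them.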

How the data were processed

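RNA was isolated with TRIzol from 9 livers, and cDNA was sequenced on an Illumina Nova6000 system. The authors deposited FPKM values per gene. The submitters' processing notes name FastQC 0.11.5, STAR 2.5.3a, StringTie 1.3.1c and DESeq2 1.16.1, and the genome build, annotation and strandedness are not given in the sources used here. Of 55335 genes, 55154 matched GENCODE release M21 (GRCm38), which gave symbols and positions, and 27411 were above 0 in at least 1 mouse. The promoters came from RefSeq (GRCm38.p6).

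Genes averaging at least 1 FPKM over the 9 mice (6755) were tested with limma 3.58.1 (R 4.3.3) on log2(FPKM + 1), with a pseudocount of 1, the 3 groups in 1 model, a trend on the mean, two-sided tests and Benjamini-Hochberg adjustment, calling genes under 0.05. Genes under the filter have differences without a standard error. Depth was estimated from single-fragment steps in low values (up to 8 fragments, tolerance 2%). In each library, 43.2% to 51.8% of low values lay at a step, against 9.1% to 16.2% by chance. Estimates and the limit of 3 fragments cover counting error only. Both procedures were tested on simulated data.

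The members, lists, motifs and housekeeping genes were chosen with earlier results of these data known. Named genes were the 10 members, the 3 tested genes per list with the largest difference in FET-chow minus NC-chow, and the 3 genes most like each of the 3 members of highest mean FPKM. A single gene named by the rule is not reported here. Map2k3 and Ccnb1 were named after their values were seen. Alternatives were a pseudocount of 0.1, no filter or a mean FPKM of at least 10, median-ratio scaling, rescaling, quantile normalization, fits of 2 groups, NC-chow mouse 1 alone, a replicate block and leaving out each mouse. Figures were drawn with matplotlib 3.10.9 in Python 3.11.15. The p-values and standard errors rest on a spread that limma estimates from all 3 groups together and moderates across genes. They do not measure the spread within the 2 groups compared alone.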

Additional observations from a re-analysis of the deposited data

How the results depend on the processing

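Of the 10 genes only Gadd45g was called in the main fit, in both comparisons with IVF-chow, and neither difference was reversed. For the other genes a change of sign was not counted as a reversal. Under the alternatives 135 (IVF-chow and NC-chow), 129 (FET-chow and NC-chow) and 133 (FET-chow and IVF-chow) of the members' values moved by less than the spread between mice, and 5, 11 and 7 moved by more. Changing the filter, fitting 2 groups or adding the replicate block cannot move a difference of group means, so these alternatives bear only on the calls. They are counted among the values that moved by less. So are changes of sign within that spread, such as Ier2 in IVF-chow minus NC-chow, at 0.38 and at -0.79 without IVF-chow mouse 4. The direction of Gadd45g was kept under all 14 alternatives in both comparisons with IVF-chow. Since every IVF-chow mouse lay above every other mouse in FPKM, only rescaling, median-ratio scaling and quantile normalization could have changed it. The other alternatives therefore say nothing of the direction. The log2 differences of Gadd45g were 3.64 to 5.79 against NC-chow and -6.55 to -4.52 for FET-chow minus IVF-chow. It was called under 3 of 14 alternatives in the former (at a mean FPKM of at least 10, without NC-chow mouse 5 and without NC-chow mouse 6) and under 10 of 14 in the latter, not without a filter, in a fit of 2 groups, under the replicate block or without IVF-chow mouse 4. Nothing is read from these calls.

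The number of genes called between FET-chow and NC-chow was 16. It became 0 without a filter (2618 at an unadjusted p under 0.05) and in a fit of 2 groups (1031). It became 5 at a mean FPKM of at least 10 and 26 with median-ratio scaling. When 1 mouse was left out it lay between 1 (without FET-chow mouse 3) and 83 (without NC-chow mouse 1). Calls with NC-chow mouse 1 alone are not counted here, since 1 mouse has no spread of its own. Between IVF-chow and NC-chow the number (4) became 0 with a pseudocount of 0.1 (179 unadjusted), without a filter (1580) and with median-ratio scaling (387). It also became 0 with rescaling (367), quantile normalization (531) and in a fit of 2 groups (318), and 2 at a mean FPKM of at least 10. When 1 mouse was left out it was 0 (without IVF-chow mouse 3 or 4, 201 and 476 unadjusted) to 24 (without NC-chow mouse 1). Between FET-chow and IVF-chow (6) it became 0 without a filter (829) and in a fit of 2 groups (207), and 0 (without IVF-chow mouse 4, 159 unadjusted) to 10 (without IVF-chow mouse 2) when 1 mouse was left out.

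With a replicate block for the mouse number, 2 genes were called between FET-chow and IVF-chow (244 unadjusted). Residuals of mice with the same number correlated at -0.13, 0.02 and -0.26, and those of mice with different numbers at -0.14 to 0.29. With 3 mice in each group these values cannot show whether the numbers pair the mice, and the labels do not say. The NC-chow numbers are not shared with the other groups. The median over the 10 genes moved in FET-chow minus NC-chow from -0.43 to -1.15 with a pseudocount of 0.1, 0.14 with quantile normalization and 0.03 with NC-chow mouse 1 alone, and in FET-chow minus IVF-chow from -1.37 to -3.02 with a pseudocount of 0.1. The cause of these shifts was not tested. Depth limits Gadd45a, Gadd45b, Gadd45g, Cdkn1a, Fos, Atf3 and Myc, for which the FPKM that 3 fragments give in the FET-chow libraries lay within or above the range of the NC-chow levels.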

Other observations

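Heat shock genes, which encode protein chaperones, were looked up after Dnajb1 had been seen beside Egr1, so they are a description. Dnajb1 was at 3.81, 4.2 and 4.16 FPKM in NC-chow mice 1, 5 and 6, at 2.78, 35.4 and 72.3 in IVF-chow mice 2, 3 and 4, and at 2.02, 1.08 and 3.16 in FET-chow mice 2, 3 and 4. IVF-chow mice 3 and 4 were far above all others. Of 10 heat shock genes, 7 had IVF-chow mice 3 and 4 above the other 7 mice, as did 7.68% of all genes tested, and after rescaling 3 did (Hspa8, Hsp90aa1 and Dnajb1), against 2.44%. Hspa8 was at 177 and 452 FPKM in those mice and at most 134 in the others. The strongly inducible Hspa1a did not share the pattern, at 1.99 and 0.618 in those mice and up to 3.36 in NC-chow mouse 5. Hspa1b and Hspb1 missed it by little. Hspa1b was at 14.6 and 14.3 in those mice and at 14.3 in FET-chow mouse 3. Hspb1 was at 24.8 and 18 in them and at 18.3 in NC-chow mouse 6.

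Socs2 was at 11.9 and 17.7 FPKM in IVF-chow mice 3 and 4 and at most 0.882 in the other 7 mice, and this held after rescaling. Of the related genes Socs1, Socs3 and Cish, none had both of these mice above the other 7. Socs3, also an immediate early gene, was at 0.468 and 2.62 in them and at 2.92 to 3.66 in the NC-chow mice.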
